A study of Arabidopsis thaliana with 24 samples.

Results

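The JAZ genes of Arabidopsis encode repressors of the jasmonate pathway. The 10 members described here were picked by locus, by a rule that used no measured values: JAZ1 (AT1G19180), JAZ2 (AT1G74950), JAZ3 (AT3G17860), JAZ5 (AT1G17380), JAZ6 (AT1G72450), JAZ7 (AT2G34600), JAZ8 (AT1G30135), JAZ9 (AT1G70700), JAZ10 (AT5G13220) and JAZ12 (AT5G20900). Earlier results of these data were known when the members were chosen. All 10 were present among the 32627 genes on the array, and no filter on dim genes was applied. JAZ4, JAZ11 and JAZ13 were not in this set and are given with the other TIFY genes further on.

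JAZ proteins bind MYC2 and related transcription factors and, through the adaptor NINJA or through an EAR motif of their own, bring in the co-repressor TOPLESS (TPL). When jasmonoyl-isoleucine (JA-Ile), the active form of the hormone, joins a JAZ protein to the F-box receptor COI1, the repressor is ubiquitinated and degraded, and the bound transcription factors are released. Many JAZ genes are themselves targets of MYC2, so that their transcripts mark jasmonate signalling as well as renew the repressors, and jasmonate is a hormone known to promote leaf senescence.

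The study asked how ethylene and cytokinin signalling act on dark-induced leaf senescence. The mutants were ein2/ore3, an ethylene-insensitive mutant, and ahk3/ore12, whose gain-of-function allele of the cytokinin receptor gene AHK3 gives a constitutive cytokinin response, and both were set against the wild type, Col. Plants were grown in soil for 21 d under 16 h of light and 8 h of dark. The third or the fourth leaf, at 12 d after emergence, was detached and placed in 3 mM MES in the dark, and RNA was taken at 0, 1, 2 and 3 d after treatment (DAT), with 0 DAT as the untreated control. No array came from a detached leaf kept in light. Changes from 0 DAT are called dark changes here, but darkness, detachment, the MES solution and time cannot be told apart in them. Each of the 12 conditions had 2 biological replicates, 1 array each, so 24 single-channel NimbleGen arrays were read, and p-values measure the spread between these arrays alone. Each mutant was represented by 1 allele.

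Values are log2 of the summed RMA intensities of a gene's transcript variants. They were quantile-normalized by the authors, so a level is relative to the other transcripts on the same array, and levels of different genes were not set against each other. In whole leaves, fewer cells of a type and less RNA per cell cannot be told apart. No detection calls came with the arrays, and the small number of arrays limits precision.

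The arrays of replicate 1 carried 1 chip number and those of replicate 2 another, so the replicate number is also the slide (12 arrays on each of 2 slides, every condition on both). Array medians lay between 9.02 and 9.16, except for ein2/ore3 at 2 DAT replicate 2 (8.91), where the lowest value was also lower (3.81) than on any other array. At Col 1 DAT, 376 genes differed by more than 2 on the log2 scale between the replicates, against 3 to 83 genes in the other pairs. Col 1 DAT replicate 1 and ein2/ore3 2 DAT replicate 2 are taken as the 2 arrays that stood apart, and the calls lost without both are given below with their values without them. The gap at Col 1 DAT does not show which of its replicates was unusual, and the median of replicate 1 (9.09) was ordinary. Levels of different probes give no check of the tissue, so the marker genes are given by value: RBCS1A of mesophyll read 14.04 to 16.33, SUC2 of companion cells 12.04 to 14.41 and the trichome gene GL2 5.57 to 6.74. Of the 7 genes of other organs, AP3 was lowest at 4.90 to 5.51 and the root gene COBL9 highest at 8.51 to 9.62. EIN2 and AHK3 transcripts passed no test between a mutant and Col (genotype term of EIN2 in ein2/ore3, -0.06, adjusted p = 0.527, and of AHK3 in ahk3/ore12, -0.11, adjusted p = 0.312, limma). Transcript level therefore gave no check of the genotype labels.

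**Figure D1:**
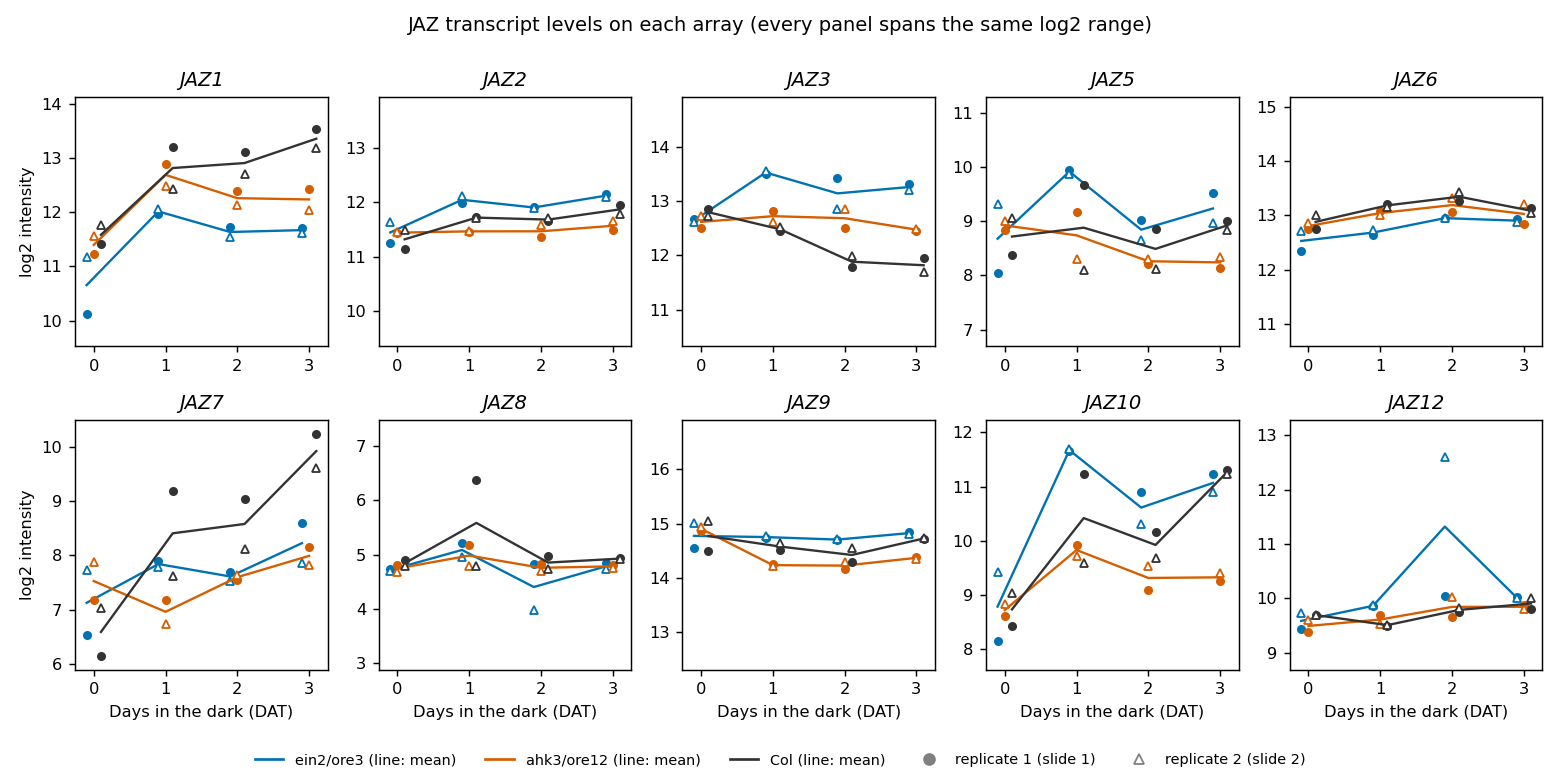
Log2 intensity (y axis) of the 10 JAZ genes against days of darkness (x axis, DAT) in ein2/ore3, ahk3/ore12 and Col. Filled circles are replicate 1 (slide 1), open triangles replicate 2 (slide 2), lines join the means, and every panel spans the same log2 range. JAZ3 separates upward in ein2/ore3 and downward in Col, JAZ7 reaches 10.24 and 9.60 in Col at 3 DAT, and the high points of JAZ8 (6.38) and JAZ12 (12.59) are single arrays.

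By 3 DAT in ein2/ore3, JAZ1, JAZ2, JAZ3 and JAZ10 rose, and none fell. In ahk3/ore12, JAZ9 fell and no member was called higher at that time. JAZ1 there lay near the threshold (0.84, adjusted p = 0.0503, limma). In Col, JAZ1, JAZ2, JAZ7 and JAZ10 rose and JAZ3 fell. The calls are from limma over all genes at a false discovery rate (FDR) of 0.05.

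Against 0 DAT, ein2/ore3 had 4, 6 and 4 of the 10 members called at 1, 2 and 3 DAT, where 22.8%, 30.8% and 32.4% of all genes were called. All these members were higher, a direction called for 13.9%, 14.6% and 17.8% of all genes. The median change of the members was 0.66, 0.47 and 0.59, against -0.00, -0.13 and 0.02 over all genes. At 3 DAT each of the 10 members had a positive mean difference in ein2/ore3, but the share of all genes with one was not computed. JAZ5 and JAZ9 had opposite signs on the 2 slides (1.47 and -0.36, and 0.30 and -0.19). The differences of JAZ8 and JAZ9 were small (0.07 and 0.05). In ahk3/ore12, 2, 2 and 1 members were called, where 25.8%, 30.1% and 34.3% of all genes were, and the members' median changes were 0.11, 0.07 and 0.18 (all genes 0.06, -0.06 and -0.06). Col had 4, 4 and 5 members called, beside 28.3%, 34.6% and 39.4% of all genes, and the members' median changes of 0.35, 0.23 and 0.21 stood beside 0.08, 0.13 and 0.14 for all genes. At 3 DAT the 4 risen members of Col stood beside 20.2% of all genes called higher, the 1 fallen member beside 19.3% called lower, and the 1 fallen member of ahk3/ore12 beside 13.9% called lower. The members' shares in Col, and in ein2/ore3 at 1 and 3 DAT, were thus within about 2 genes of the background share for either direction. In ahk3/ore12 they lay below that share. The ein2/ore3 members, all higher, stood further above the shares called higher, which was not tested for the set.

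Between a mutant and Col at the same time, calls on JAZ genes appeared only in the dark. For ein2/ore3, 0, 2, 3 and 3 members were called at 0, 1, 2 and 3 DAT, where 0.288%, 13.3%, 20.3% and 25.1% of all genes were called. For ahk3/ore12, 0, 0, 1 and 4 members were called, where 0.0245%, 0.622%, 12% and 23.1% of all genes were. At an unadjusted p under 0.05, 2 members at 0 DAT in ein2/ore3 (JAZ1 and JAZ6), 0 at 0 DAT in ahk3/ore12 and 1 at 1 DAT in ahk3/ore12 (JAZ7) passed by limma. The Col arrays are shared by both sets of differences.

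**Figure D2:**
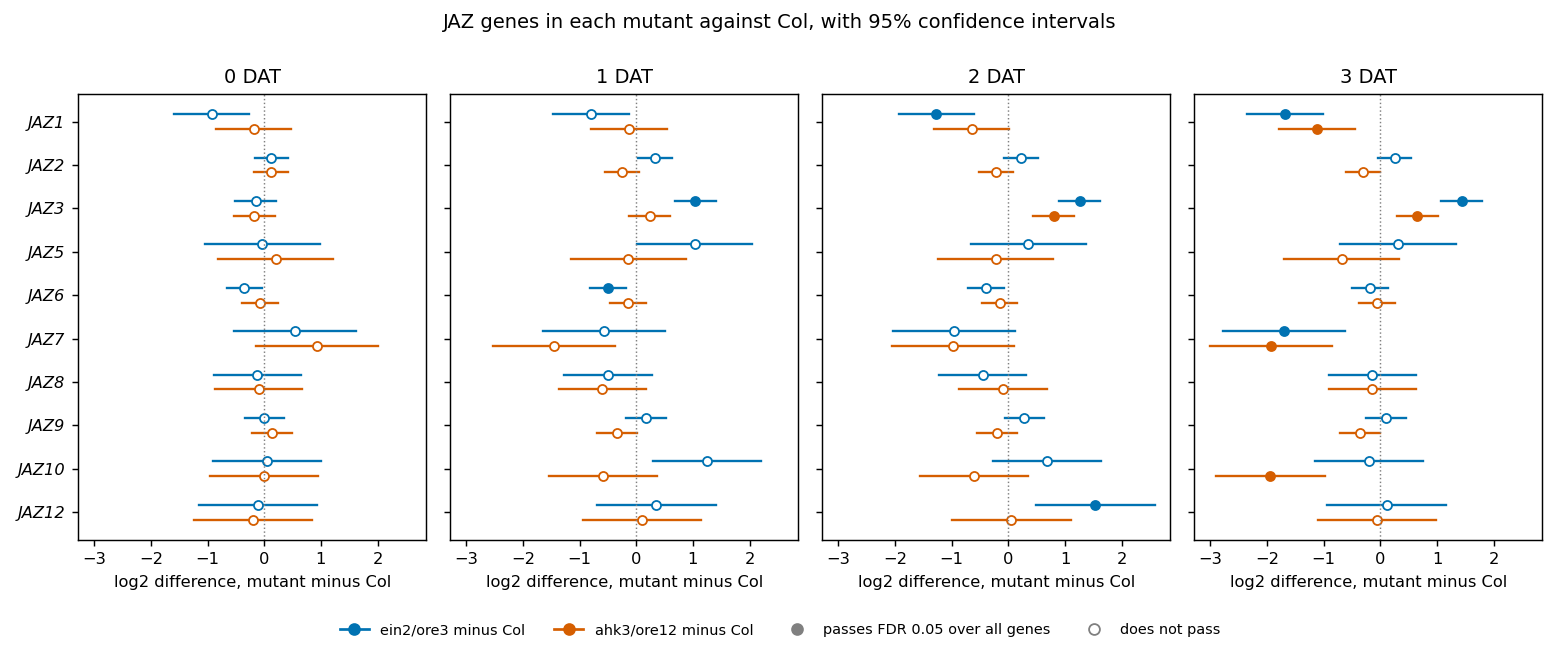
Log2 difference of each mutant minus Col (x axis) for the 10 JAZ genes (rows) at 0, 1, 2 and 3 DAT (panels). Points are limma estimates from 2 arrays per condition, bars are 95% confidence intervals and filled points pass an FDR of 0.05. At 3 DAT both mutants have JAZ3 above Col and JAZ1 and JAZ7 below it, and JAZ10 is below Col in ahk3/ore12 (-1.94) but not called in ein2/ore3 (-0.20).

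JAZ3, whose truncated form in the jai3 mutant dominantly confers jasmonate insensitivity, moved in opposite directions in ein2/ore3 and Col. In ein2/ore3 its replicates read 12.67 and 12.60 at 0 DAT, 13.50 and 13.55 at 1 DAT, 13.42 and 12.86 at 2 DAT, and 13.30 and 13.21 at 3 DAT. Values of ahk3/ore12 were 12.50 and 12.73, 12.82 and 12.62, 12.50 and 12.86, and 12.46 and 12.49 at the same times. Col read 12.86 and 12.73, 12.45 and 12.51, 11.78 and 11.98, and 11.94 and 11.69. All 6 dark arrays of ein2/ore3 (12.86 to 13.55) lay above all 6 of Col (11.69 to 12.51), a pattern that 5.76% of all genes showed in this direction, and the ahk3/ore12 arrays lay near their own start and overlapped the Col arrays.

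JAZ3 rose by 0.89 ± 0.17 (SE), 0.50 and 0.62 in ein2/ore3 at 1, 2 and 3 DAT (adjusted p = 0.00115, 0.0355 and 0.01) and fell by 0.91 and 0.98 in Col at 2 and 3 DAT (adjusted p = 4.9e-04 and 2.2e-04, limma, n = 2). The change at 3 DAT was 0.63 and 0.61 on the slides in ein2/ore3, and -0.91 and -1.04 in Col. Of all genes, 314 (0.962%) were likewise called higher in ein2/ore3 and lower in Col at 3 DAT. The difference itself was tested by the interaction of genotype and time, which gave 1.2, 1.41 and 1.59 ± 0.24 (SE) at 1, 2 and 3 DAT (adjusted p = 0.00877, 0.00172 and 3.5e-04). For that interaction 1, 1 and 2 members were called, where 5.71%, 11.1% and 16.1% of all genes were. In the F-test over the 3 times JAZ3 was the member called in ein2/ore3 (adjusted p = 0.00116, with 15.3% of all genes called).

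JAZ3 stood above Col at 2 and 3 DAT in both mutants, and further in ein2/ore3 at 3 DAT. In ein2/ore3 it was 1.05, 1.26 and 1.44 higher at 1, 2 and 3 DAT, the last a 2.71-fold difference (95% interval 1.08 to 1.80 on the log2 scale, adjusted p = 1.6e-05). In ahk3/ore12 it was 0.80 higher at 2 DAT (adjusted p = 0.00586) and 0.65 higher at 3 DAT (1.57-fold, adjusted p = 0.0111). Set against ahk3/ore12, ein2/ore3 was higher by 0.80 at 1 DAT and 0.79 at 3 DAT (adjusted p = 0.00656 and 0.00746). The interaction in ahk3/ore12 was 0.98 at 2 DAT and 0.83 at 3 DAT (adjusted p = 0.0265 and 0.0323), with 1 and 2 members called where 5.7% and 13.3% of all genes were. At 1 DAT 0 members passed it (0.0429% of all genes) and 1, JAZ7, had an unadjusted p under 0.05 by limma. The F-test for ahk3/ore12 called JAZ3 alone among the members (adjusted p = 0.0496, 8.81% of all genes called), and that call was lost in 21 of the fits that left out 1 array (adjusted p 0.0139 to 0.174). The ahk3/ore12 interactions at 2 and 3 DAT lost their calls in 4 and 5 such fits. The ahk3/ore12 difference from Col lost its call at 3 DAT without replicate 2 of ahk3/ore12 or of Col at that time, and at 2 DAT without ahk3/ore12 2 DAT replicate 2 or Col 2 DAT replicate 1. The 2 DAT call was also lost with only the compared arrays in the fit.

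The rise of JAZ3 in ein2/ore3 lost its call at 3 DAT without ein2/ore3 3 DAT replicate 1 or 0 DAT replicate 2. That call was also lost with only the compared arrays in the fit. The rise of 0.50 at 2 DAT ranged between 0.22 and 0.78 over the refits and lost its call without either ein2/ore3 0 DAT replicate or without ein2/ore3 2 DAT replicate 1, and with only the compared arrays in the fit (adjusted p up to 0.305). The differences of ein2/ore3 from Col at 1 and 2 DAT also lost their calls with only the compared arrays in the fit (adjusted p = 0.0694 and 0.0726). The excess over ahk3/ore12 lost its call without replicate 2 of either mutant at 1 DAT, and without replicate 1 of either at 3 DAT. At 3 DAT the excess was also lost with only the compared arrays in the fit.

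**Figure D3:**
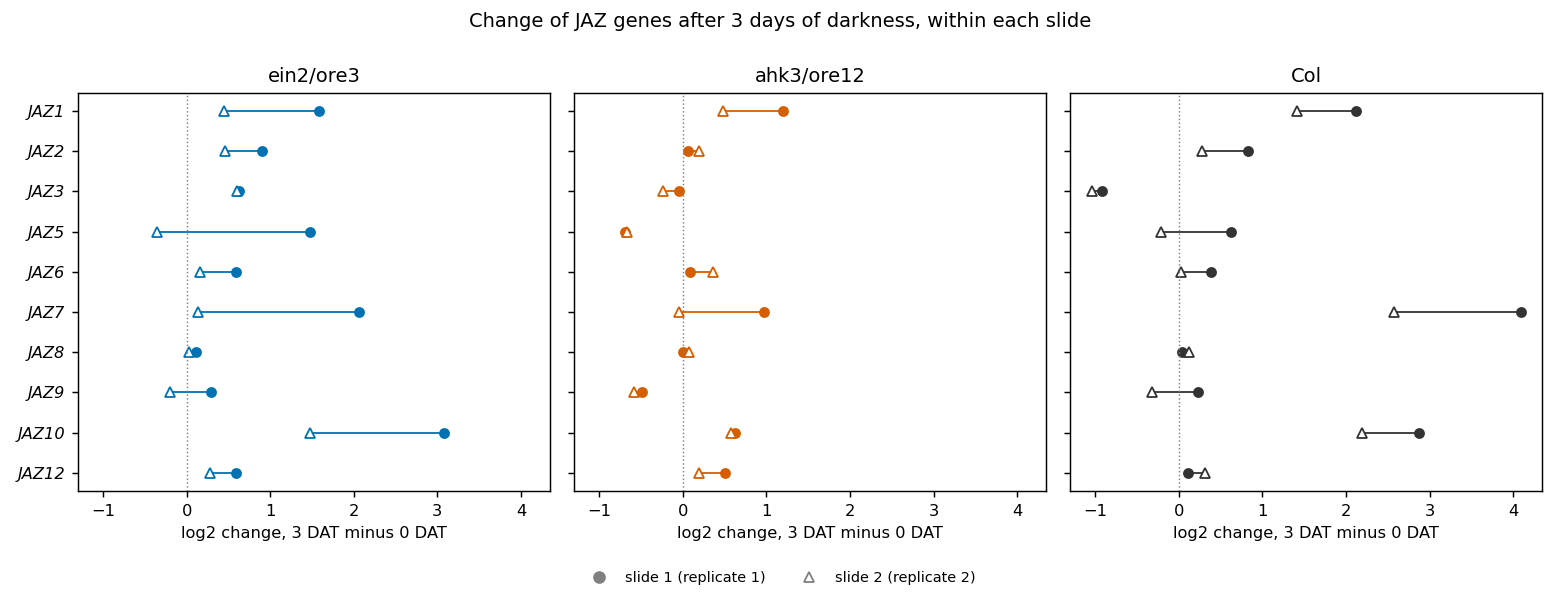
Change in log2 intensity at 3 DAT against 0 DAT (x axis) for each JAZ gene (rows) in ein2/ore3, ahk3/ore12 and Col (panels), computed separately on slide 1 (filled circles) and slide 2 (open triangles). JAZ3 has near-equal changes on both slides in ein2/ore3 (0.63 and 0.61) and in Col (-0.91 and -1.04), whereas JAZ7 differs between the slides in ein2/ore3 (2.06 and 0.14).

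JAZ1 and JAZ2 are close relatives. JAZ1 protein binds MYC2 and also the ethylene-pathway factors EIN3 and EIL1. JAZ1 rose in darkness in every genotype at 1 DAT. In ein2/ore3 it read 10.13 and 11.18 at 0 DAT, 11.96 and 12.07 at 1 DAT, 11.72 and 11.55 at 2 DAT, and 11.71 and 11.62 at 3 DAT. The ahk3/ore12 arrays read 11.23 and 11.56, 12.89 and 12.48, 12.38 and 12.13, and 12.43 and 12.04, and in Col 11.40 and 11.76, 13.20 and 12.42, 13.11 and 12.69, and 13.52 and 13.18. The 6 dark arrays of ein2/ore3 (11.55 to 12.07) all lay below the 6 of Col (12.42 to 13.52), as 3.65% of all genes did in this direction, and those of ahk3/ore12 (12.04 to 12.89) overlapped Col.

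The dark rise of JAZ1 at 1, 2 and 3 DAT was 1.36, 0.98 and 1.01 ± 0.31 (SE) in ein2/ore3 (adjusted p = 0.0045, 0.0264 and 0.02), and for Col arrays 1.23, 1.32 and 1.77 (adjusted p = 0.00693, 0.00335 and 2.6e-04). In ahk3/ore12 it was 1.29 at 1 DAT and 0.86 at 2 DAT (adjusted p = 0.00542 and 0.0494). The 1 DAT call was lost without replicate 1 of ahk3/ore12 at 0 or at 1 DAT, and the 2 DAT call in 20 of the fits that left out 1 array and with median centring (adjusted p up to 0.262). Its value of 0.84 at 3 DAT there had an adjusted p of 0.0503, and 0.0493 with the replicate (slide) as a block. At 3 DAT JAZ1 was 3.21-fold lower in ein2/ore3 than in Col (-1.68, 95% interval -2.35 to -1.02, adjusted p = 8.5e-04) and 2.17-fold lower in ahk3/ore12 (-1.12, adjusted p = 0.0172). Slides 1 and 2 gave -1.81 and -1.56 for the ein2/ore3 difference, and -1.10 and -1.14 for that of ahk3/ore12.

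For JAZ1 at 0 DAT the ein2/ore3 difference of -0.93 did not pass (95% interval -1.59 to -0.26, adjusted p = 0.466), and the dark change of JAZ1 was not shown to differ from that of Col (interaction at 3 DAT -0.76, adjusted p = 0.326 in ein2/ore3, and -0.93, adjusted p = 0.187 in ahk3/ore12). The genotype term, which takes all 4 times together, was -1.17 for JAZ1 in ein2/ore3 (adjusted p = 0.00114). In that model 4 members were called for ein2/ore3 (JAZ1 and JAZ6 lower, JAZ2 and JAZ3 higher), where 19.2% of all genes were. The JAZ2 term (0.23, adjusted p = 0.0437) was lost in 14 fits that left out 1 array, with median centring and without the arrays that stood apart (0.23, adjusted p = 0.102). In the same model 0 were called for ahk3/ore12, where 9% were. For ahk3/ore12, 4 members (JAZ1, JAZ3, JAZ7 and JAZ10) had an unadjusted p under 0.05 by limma, and JAZ1 (-0.52, adjusted p = 0.0638) passed with the replicate block (0.0487). The call on JAZ1 in ahk3/ore12 at 3 DAT was lost without ahk3/ore12 3 DAT replicate 2 or Col 3 DAT replicate 1.

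JAZ2 changed less than JAZ1. Its replicates in ein2/ore3 read 11.26 and 11.64 at 0 DAT, 11.98 and 12.12 at 1 DAT, 11.92 and 11.90 at 2 DAT, and 12.16 and 12.09 at 3 DAT. The 8 arrays of ahk3/ore12 stayed between 11.36 and 11.65, and Col read 11.96 and 11.78 at 3 DAT, against 11.14 and 11.50 at 0 DAT. Under darkness every ahk3/ore12 array lay below every Col array (Col 11.66 to 11.96), a direction in which 0.8% of all genes showed no overlap. The gap between the highest ahk3/ore12 and the lowest Col array was small.

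JAZ2 rose in ein2/ore3 by 0.60, 0.46 and 0.68 ± 0.14 (SE) at 1, 2 and 3 DAT (adjusted p = 0.00472, 0.0201 and 0.00126) and in Col by 0.40 at 1 DAT and 0.55 at 3 DAT (adjusted p = 0.0425 and 0.00456). The Col value of 0.36 at 2 DAT passed with the block alone (adjusted p = 0.0352, and 0.0561 without). No difference of ahk3/ore12 minus Col was called. JAZ2 was higher in ein2/ore3 than in ahk3/ore12 by 0.58 at 1 DAT (adjusted p = 0.0147) and 0.55 at 3 DAT (adjusted p = 0.0184), and at 2 DAT by 0.44 (adjusted p = 0.0588, and 0.033 with the block). Between these mutants 0, 3, 0 and 3 members were called over the 4 times, where 0.405%, 9.34%, 10.3% and 10.3% of all genes were. At an unadjusted p under 0.05, 1 member passed at 0 DAT and 5 at 2 DAT by limma. Without Col 0 DAT replicate 1 or Col 3 DAT replicate 1 the rise of JAZ2 in Col at 3 DAT lost its call. That at 1 DAT was lost in 13 fits that left out 1 array (adjusted p up to 0.451) and without the arrays that stood apart (0.39, adjusted p = 0.108). The ein2/ore3 rise at 2 DAT was 0.47 without the arrays that stood apart (adjusted p = 0.0751), and was also lost without either ein2/ore3 2 DAT replicate or without ein2/ore3 0 DAT replicate 1. That at 1 DAT was lost without ein2/ore3 1 DAT replicate 2 or 0 DAT replicate 1. The excess of JAZ2 in ein2/ore3 over ahk3/ore12 was lost in 4 such fits at 1 DAT and 3 at 3 DAT.

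JAZ7 and JAZ8 carry an EAR motif that binds TPL directly, and JAZ8 lacks the canonical degron, the stretch that COI1 recognizes. Loss of JAZ7 is reported to speed dark-induced senescence. JAZ7 had the largest dark change of the 10 members in Col. In ein2/ore3 it read 6.53 and 7.72 at 0 DAT, 7.90 and 7.79 at 1 DAT, 7.69 and 7.54 at 2 DAT, and 8.59 and 7.86 at 3 DAT. The ahk3/ore12 values were 7.18 and 7.88, 7.18 and 6.75, 7.55 and 7.64, and 8.16 and 7.83, and those of Col were 6.15 and 7.03, 9.19 and 7.63, 9.03 and 8.12, and 10.24 and 9.60. At 3 DAT both Col arrays lay at least 1 unit above all 4 mutant arrays, and at 2 DAT they also lay above all 4. At 0 DAT ein2/ore3 overlapped Col (ein2/ore3 minus Col 0.38 and 0.69 on the slides). Both ahk3/ore12 arrays lay above both Col arrays, with differences of 1.03 and 0.84 on the slides. Neither 0 DAT difference was called, but both enter the interactions given below. How many of all genes showed such splits was not counted.

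The change of JAZ7 at 3 DAT in ein2/ore3, 1.10 ± 0.50 (SE), did not pass (adjusted p = 0.12, 2.06 and 0.14 on the slides), nor did that of 0.46 in ahk3/ore12 (adjusted p = 0.514, 0.98 and -0.05 on the slides). In Col JAZ7 rose by 1.82, 1.99 and 3.33 over the 3 times (adjusted p = 0.0124, 0.0056 and 6.2e-05), and that rise at 3 DAT ranked 446 from the highest of 32627 genes. The Col change at 3 DAT was 4.09 on slide 1 and 2.57 on slide 2. The interaction at 3 DAT was -2.23 ± 0.71 (SE) in ein2/ore3 (adjusted p = 0.0454) and -2.87 in ahk3/ore12 (adjusted p = 0.0155). The ein2/ore3 interaction of JAZ7 lost its call in 18 of the 24 fits that left out 1 array, and with quantile normalization of the gene table or only the compared arrays in the fit. The ahk3/ore12 interaction lost it in 4, without Col 0 DAT replicate 1, Col 3 DAT replicate 1, or replicate 2 of ahk3/ore12 at 0 or 3 DAT (adjusted p up to 0.0825). The Col rise at 2 DAT was lost without replicate 1 of Col at 0 or 2 DAT.

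JAZ7 at 3 DAT was 3.24-fold lower in ein2/ore3 than in Col (-1.70, 95% interval -2.77 to -0.62, adjusted p = 0.0214) and 3.81-fold lower in ahk3/ore12 (-1.93, interval -3.01 to -0.85, adjusted p = 0.0118). The mutants were not shown to differ from each other in JAZ7 (0.23, adjusted p = 0.836). Both calls against Col were lost without Col 3 DAT replicate 1, or without the mutant's own replicate 2 at that time. JAZ8 passed none of 32 tests, and 0 of them had an unadjusted p under 0.05 (limma, lowest adjusted p = 0.16). Of its 24 arrays, 23 lay between 3.98 and 5.22, near the dim end of the arrays, and Col 1 DAT replicate 1 read 6.38.

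JAZ10 acts in a feedback loop, and its splice forms differ in the degron, so that some resist degradation. It rose strongly in ein2/ore3 and Col and was not called in ahk3/ore12. Replicates of ein2/ore3 read 8.16 and 9.42 at 0 DAT, 11.65 and 11.69 at 1 DAT, 10.91 and 10.32 at 2 DAT, and 11.24 and 10.90 at 3 DAT. Those of ahk3/ore12 read 8.62 and 8.83, 9.93 and 9.73, 9.10 and 9.53, and 9.25 and 9.40, and those of Col read 8.43 and 9.04, 11.24 and 9.60, 10.17 and 9.68, and 11.30 and 11.24. At 1, 2 and 3 DAT each ein2/ore3 array was above both ahk3/ore12 arrays, and at 2 and 3 DAT so was each Col array. The share of all genes with such a split was not computed. The Col replicates at 1 DAT were 1.64 apart.

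The rise of JAZ10 in ein2/ore3 was 2.88, 1.82 and 2.28 ± 0.45 (SE) at 1, 2 and 3 DAT (7.37-fold at 1 DAT, adjusted p = 2.0e-04, 0.00546 and 8.7e-04). In ahk3/ore12 the values of 1.10 at 1 DAT and 0.60 at 3 DAT did not pass (adjusted p = 0.0908 and 0.338). In Col it rose by 1.68 at 1 DAT and 2.53 at 3 DAT (adjusted p = 0.00941 and 2.6e-04), and the value of 1.19 at 2 DAT did not pass (adjusted p = 0.0524). At 3 DAT the slides gave 3.08 and 1.48 for ein2/ore3, 0.63 and 0.58 for ahk3/ore12, and 2.87 and 2.20 for Col.

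At 3 DAT JAZ10 was 3.84-fold lower in ahk3/ore12 than in Col (-1.94, adjusted p = 0.00534), with -2.05 and -1.83 on the slides, and ranked 193 from the lowest of 32627 genes. The difference of ein2/ore3 from Col was -0.20 (95% interval -1.16 to 0.75, adjusted p = 0.863). Set against ahk3/ore12, ein2/ore3 had 3.58-fold more JAZ10 signal at 1 DAT (1.84, adjusted p = 0.0164) and 3.34-fold more at 3 DAT (1.74, adjusted p = 0.021), and each of these calls was lost without any 1 of its 4 arrays. A smaller dark change in ahk3/ore12 than in Col was not shown (interaction at 3 DAT -1.93 ± 0.63 SE, adjusted p = 0.0581).

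Calls in Col at 1 DAT rested on single arrays. Without Col 1 DAT replicate 1 or Col 0 DAT replicate 1, JAZ1, JAZ7 and JAZ10 each lost the call, and without the pair of arrays that stood apart the changes at 1 DAT were 0.84, 1.04 and 0.86 (adjusted p = 0.092, 0.158 and 0.121). On slide 1 these changes were 1.80, 3.04 and 2.81, against 0.66, 0.59 and 0.56 on slide 2. At 0 DAT replicate 2 read higher than replicate 1 in every genotype for JAZ1, JAZ2, JAZ5, JAZ6, JAZ7, JAZ9 and JAZ10. In ein2/ore3 the gaps were, in that order, 1.05, 0.38, 1.28, 0.37, 1.19, 0.46 and 1.26. Without ein2/ore3 0 DAT replicate 1 the rise of JAZ1 in that mutant at 1, 2 and 3 DAT was 0.83, 0.45 and 0.49 (adjusted p = 0.0907, 0.333 and 0.302), that of JAZ2 at 1 and 2 DAT was 0.41 and 0.27 (adjusted p = 0.089 and 0.237), and that of JAZ10 at 2 DAT was 1.19 (adjusted p = 0.0954). The JAZ1 rises at 2 and 3 DAT were also lost without either ein2/ore3 replicate of that time. JAZ3, JAZ6 and JAZ12 at 2 DAT lost their calls without ein2/ore3 0 DAT replicate 1 too (0.54, 0.24 and 1.59, adjusted p = 0.091, 0.351 and 0.0822). The moderated F-test over the 8 Col arrays called JAZ1, JAZ3 and JAZ7 (adjusted p = 0.0264, 0.0081 and 0.0388), where 27.8% of all genes were called. Those of JAZ1 and JAZ7 were lost in 5 and 6 fits that left out 1 array and by the ordinary F-test. JAZ10 passed it with the block alone (adjusted p = 0.045, and 0.0583 without).

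JAZ9, a relative of JAZ3, was the only member called lower in ahk3/ore12. JAZ5 also read lower there at 3 DAT (-0.68, with -0.69 and -0.67 on the slides), which was not called. The ahk3/ore12 arrays read 14.87 and 14.94 for JAZ9 at 0 DAT, 14.25 and 14.22 at 1 DAT, 14.17 and 14.29 at 2 DAT, and 14.39 and 14.36 at 3 DAT. Arrays of ein2/ore3 read 14.55 and 15.01 at 0 DAT, and the dark arrays lay between 14.69 and 14.84. Col read 14.49 and 15.05, 14.52 and 14.64, 14.30 and 14.55, and 14.73 and 14.73. All dark ahk3/ore12 arrays lay below both 0 DAT arrays of that genotype, a pattern whose share over all genes was not computed. The 0 DAT replicates of ein2/ore3 spanned its dark arrays, and in Col 1 dark array (14.30) lay below both 0 DAT replicates.

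The fall of JAZ9 in ahk3/ore12 was 0.67, 0.68 and 0.53 on the log2 scale (-0.67, -0.68 and -0.53 ± 0.16 SE, adjusted p = 0.00579, 0.00453 and 0.0183) and was -0.49 and -0.58 on the slides at 3 DAT. Against ahk3/ore12, ein2/ore3 was 0.52, 0.48 and 0.46 higher at 1, 2 and 3 DAT, which passed with the block (adjusted p = 0.0271, 0.0361 and 0.0465) but not without it (adjusted p = 0.0636, 0.078 and 0.0984). No difference of either mutant from Col was called for JAZ9, at a single time or in the dark change. The 3 DAT fall lost its call in 4 of the fits that left out 1 array and when only the brightest transcript variant was used.

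JAZ5 and JAZ6 are close relatives. JAZ6 changed little, with ein2/ore3 below Col both before darkness and in it. On slides 1 and 2 ein2/ore3 minus Col was -0.41 and -0.30 at 0 DAT and -0.20 and -0.16 at 3 DAT, neither time called. The 6 dark arrays of ein2/ore3 read 12.63 to 12.96 (median 12.90) and those of Col 13.04 to 13.43 (median 13.19), with no overlap, as for 3.65% of all genes in this direction. The difference was -0.50 ± 0.15 (SE) at 1 DAT (adjusted p = 0.0354), -0.40 at 2 DAT (adjusted p = 0.0727, and 0.0385 with the block) and -0.36 in the genotype term (adjusted p = 0.00512). JAZ6 rose at 2 DAT by 0.42 in ein2/ore3 (adjusted p = 0.043) and by 0.46 in Col (adjusted p = 0.0229), while 0.39 at 2 DAT in ahk3/ore12 and 0.37 at 3 DAT in ein2/ore3 passed with the block alone (adjusted p = 0.0326 and 0.036). Without the arrays that stood apart the ein2/ore3 difference from Col at 1 DAT was -0.47 (adjusted p = 0.0907) and the ein2/ore3 rise at 2 DAT 0.42 (adjusted p = 0.135). The difference was lost without any 1 of its 4 arrays, the rise in 13 fits that left out 1 array, and the Col rise without Col 0 DAT replicate 1 or Col 2 DAT replicate 2. JAZ5 passed none of the 32 tests (limma, lowest adjusted p = 0.0803, 3 at an unadjusted p under 0.05). Its replicates were as much as 1.56 apart, in Col at 1 DAT, with an SE of 0.48 for each difference, and its change of 1.24 at 1 DAT in ein2/ore3 had an adjusted p of 0.0803.

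JAZ12, whose protein is bound and stabilized by the ubiquitin ligase KEG, was nearly constant on 23 arrays, between 9.37 and 10.05. Replicate 2 of ein2/ore3 at 2 DAT read 12.59, and replicate 1 of that condition read 10.05. Its calls at that time, 1.74 against 0 DAT (adjusted p = 0.0136) and 1.53 against Col (adjusted p = 0.0391), therefore rested on 1 array. Without the arrays that stood apart they were 0.46 (adjusted p = 0.062) and 0.26 (adjusted p = 0.391). Against ahk3/ore12 the 2 DAT value of 1.48, from the same array, passed with the block alone (adjusted p = 0.0473, and 0.0704 without).

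The array measures several transcript variants of JAZ1, JAZ3, JAZ9 and JAZ10, each with 3 or 4 probes, and their values are given with no test. Both JAZ3 variants went up in ein2/ore3 (0.60 and 0.63 at 3 DAT) and down in Col (-1.12 and -0.84). Both JAZ9 variants went down in ahk3/ore12, the first by -0.51, -0.58 and -0.41 at 1, 2 and 3 DAT and the second by -1.02, -0.88 and -0.80. JAZ10 variants 1 and 3 had changes at 3 DAT of 2.51 and 2.67 for ein2/ore3, 0.77 and 0.67 for ahk3/ore12, and 2.60 and 3.07 for Col. For variants 2 and 4 the changes were 0.94 and 0.69 for ein2/ore3, 0.23 and -0.01 for ahk3/ore12, and 0.69 and 0.57 for Col. Condition means of variants 2 and 4 lay between 5.35 and 6.96, near the low end of the arrays, so their changes were not set against those of variants 1 and 3. How far the probes of a variant are specific to it was not tested.

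**Figure D4:**
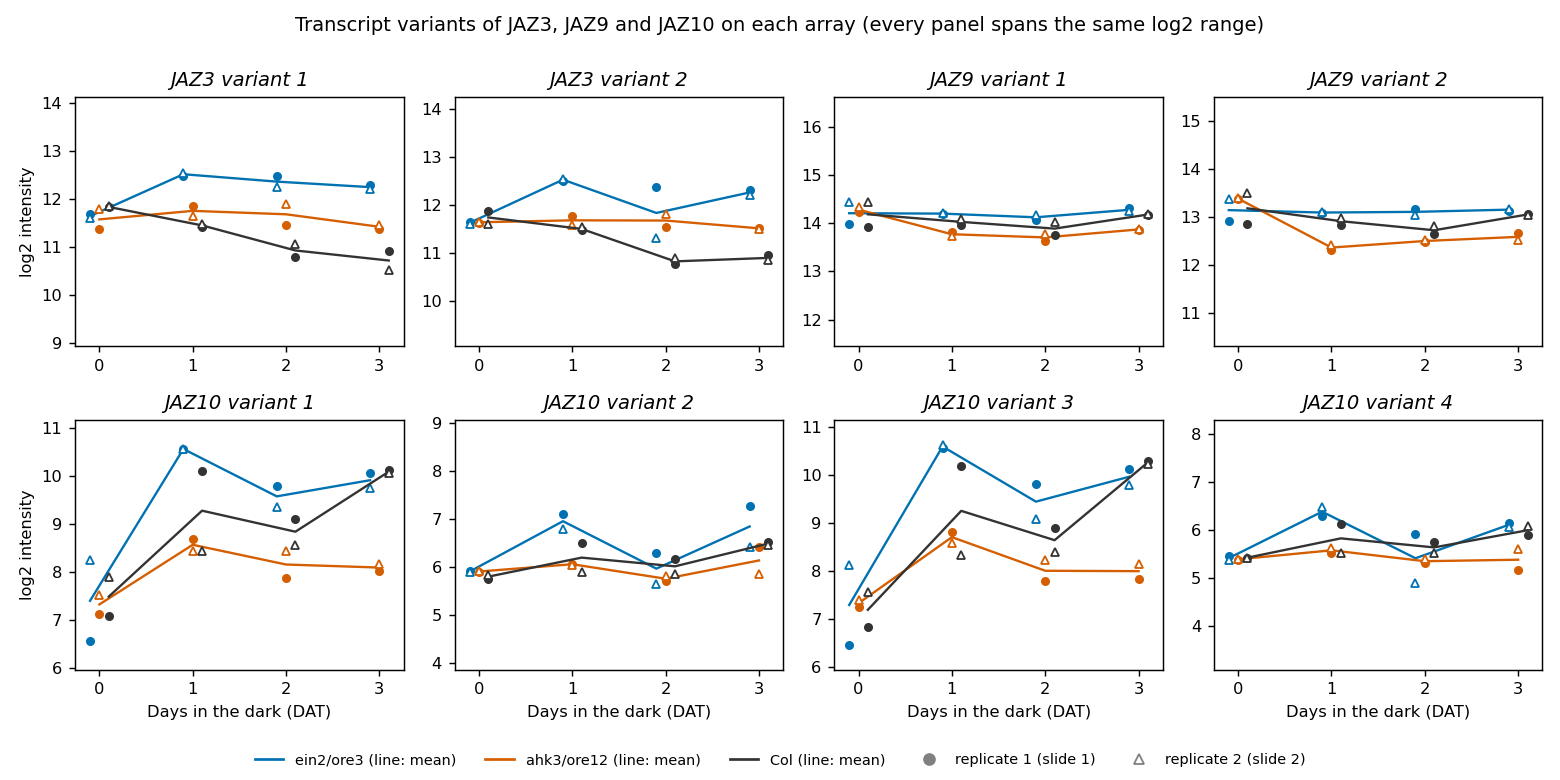
Log2 intensity (y axis) of the transcript variants of JAZ3 (2), JAZ9 (2) and JAZ10 (4) against DAT (x axis) in ein2/ore3, ahk3/ore12 and Col. Lines join the means of 2 arrays. JAZ10 variants 1 and 3 change by over 2 log2 units at 3 DAT in ein2/ore3 and Col, and variants 2 and 4 have condition means of 5.35 to 6.96, near the low end of the arrays.

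In the rest of the jasmonate pathway, the genes called at 3 DAT for perception, co-repression and jasmonate turnover were all higher than at 0 DAT, and most of those called for JA-Ile synthesis were lower, in each genotype. Among the 11 genes of perception and co-repression, 6, 5 and 6 were called at 3 DAT in ein2/ore3, ahk3/ore12 and Col, all higher, where 32.4%, 34.3% and 39.4% of all genes were called in either direction. These shares are the background of every list at 3 DAT. The medians of the list were 0.32, 0.26 and 0.40 (all genes 0.02, -0.06 and 0.14). TPL rose by 1.49, 1.73 and 1.25 in ein2/ore3, ahk3/ore12 and Col (adjusted p = 6.6e-09, 1.6e-09 and 2.1e-08), and its relative TPR2 by 0.67 in Col. COI1 and NINJA passed none of 32 tests each (limma, lowest adjusted p = 0.153 for COI1 and 0.199 for NINJA, and 0 at an unadjusted p under 0.05). The SCF subunit genes ASK2 and ASK1 had genotype terms of 0.31 and -0.29 in ein2/ore3 (adjusted p = 0.0216 and 0.0268), and the co-repressor gene TPR4 one of -0.36 in ahk3/ore12 (adjusted p = 0.0346).

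Of 12 genes for transcription factors that JAZ proteins bind, 6 (5 higher, 1 lower), 7 (5 higher, 2 lower) and 8 (5 higher, 3 lower) were called at 3 DAT in ein2/ore3, ahk3/ore12 and Col, beside 32.4%, 34.3% and 39.4% of all genes. MYC2, the central activator of the pathway, had values of -0.01 in ein2/ore3 (adjusted p = 0.968) and -0.30 in ahk3/ore12 (adjusted p = 0.103), and fell by 0.56 in Col (adjusted p = 0.00345). MYC2 was 0.77, 0.61 and 0.69 higher in ein2/ore3 than in Col on days 1, 2 and 3, with a genotype term of 0.56 (adjusted p = 0.00234). In ahk3/ore12 the genotype term of MYC2 was 0.29 (adjusted p = 0.0305), and no single time passed. Its relative MYC4 fell by 0.43 in ein2/ore3, 0.41 in ahk3/ore12 and 1.31 in Col (adjusted p = 0.0354, 0.0401 and 2.8e-06). WRKY57, a factor that binds JAZ8 and JAZ4, rose by 2.83, 3.48 and 3.92 in ein2/ore3, ahk3/ore12 and Col, and its genotype term in ein2/ore3 was -1.10 (adjusted p = 0.00196). EIN3 rose by 0.68, 0.66 and 0.55.

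Among the 14 JA-Ile synthesis genes, 8 (2 higher, 6 lower), 7 (1 higher, 6 lower) and 8 (1 higher, 7 lower) were called at 3 DAT in ein2/ore3, ahk3/ore12 and Col, against shares of 32.4%, 34.3% and 39.4% over all genes. The allene oxide cyclase gene AOC2 fell in each (-1.93, -2.95 and -3.25), and AOC4 fell in Col (-1.31). Both had positive genotype terms in ein2/ore3 (AOC2 0.67, adjusted p = 0.0151, and AOC4 1.11, adjusted p = 0.00317), while AOS and ACX1, for steps earlier and later in the same route, had terms of -0.28 and -0.26 in ahk3/ore12 (adjusted p = 0.048 and 0.0304). Of 10 turnover genes, 6, 6 and 7 were called against the same shares, all higher, with medians of 0.92, 0.96 and 2.16. The jasmonate hydroxylase genes JOX4 and JOX3 rose in all 3 genotypes, JOX4 by 1.95, 4.30 and 5.39 and JOX3 by 3.68, 3.37 and 4.94. ILL6, which encodes a hydrolase of jasmonate conjugates, had a genotype term of 0.65 in ein2/ore3 (adjusted p = 0.00595). JOX4 and CYP94B3, an enzyme gene of JA-Ile oxidation, had genotype terms of -0.74 and -0.99 in ahk3/ore12 (adjusted p = 0.0365 and 0.0433).

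Of 8 jasmonate-responsive genes, 4 (1 higher, 3 lower), 6 (1 higher, 5 lower) and 5 (1 higher, 4 lower) were called at 3 DAT in ein2/ore3, ahk3/ore12 and Col (all genes 32.4%, 34.3% and 39.4%), with medians of -0.73, -1.23 and -1.19. The defensin gene PDF1.2A fell by 2.09, 3.72 and 2.69. ERF1, which ethylene and jasmonate both induce, had a value of 0.43 in ein2/ore3 (adjusted p = 0.391) and rose by 3.46 in ahk3/ore12 and 4.45 in Col, and the genotype terms in ein2/ore3 were -2.90 for ERF1 and -2.65 for ORA59 (adjusted p = 0.00168 and 3.6e-04). All 8 genes of this list had a called genotype term in ein2/ore3 (5 higher, 3 lower), where 19.2% of all genes did. In ahk3/ore12 0 of 8 had one by limma, where 9% of all genes did, and 2 had an unadjusted p under 0.05.

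**Figure D5:**
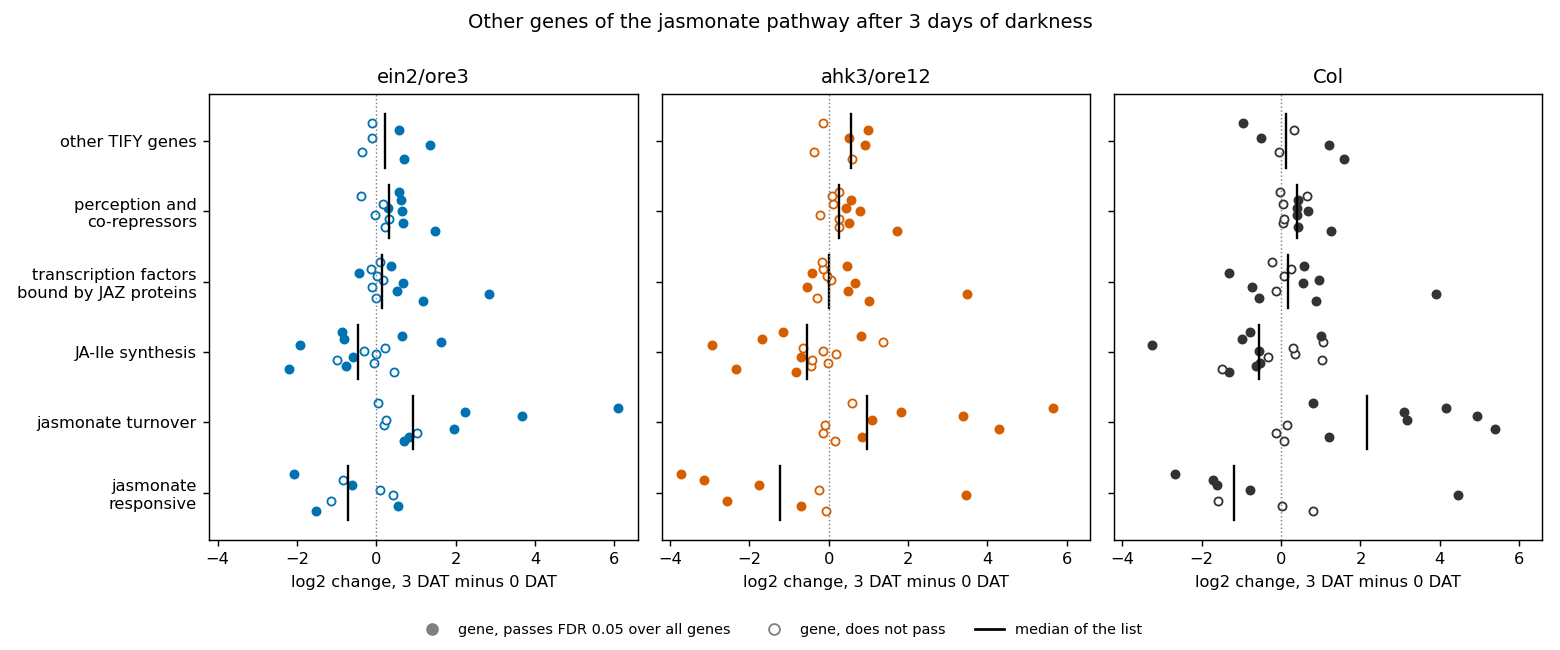
Change in log2 intensity at 3 DAT against 0 DAT (x axis) for the genes of 6 jasmonate-pathway lists (rows) in ein2/ore3, ahk3/ore12 and Col (panels). Each point is a gene, filled where it passes an FDR of 0.05, and the bar is the median of the list. Turnover genes lie to the right, with a median of 0.92 in ein2/ore3 against 2.16 in Col, and most called JA-Ile synthesis genes lie to the left.

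Of the 6 other TIFY genes, 3, 3 and 4 were called at 3 DAT in ein2/ore3, ahk3/ore12 and Col, where 32.4%, 34.3% and 39.4% of all genes were. JAZ4 rose by 0.70 in ein2/ore3 (adjusted p = 0.0393), had a value of 0.60 in ahk3/ore12 (adjusted p = 0.0749) and rose by 1.59 in Col (adjusted p = 6.7e-05), and at 3 DAT it was lower in ein2/ore3 than in Col (-0.97, adjusted p = 0.00777) and lower in ahk3/ore12 than in Col (95% interval of the log2 difference -1.52 to -0.48, adjusted p = 0.00767). JAZ11 rose by 1.34, 0.91 and 1.2, and its genotype terms were -0.53 in ein2/ore3 and -0.44 in ahk3/ore12 (adjusted p = 6.8e-04 and 0.0257). JAZ13 passed 1 of 32 tests, the ein2/ore3 genotype term (0.42, adjusted p = 0.0177).

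Leaf cell markers moved in the same arrays. All 5 mesophyll markers (RBCS1A, RBCS2B, RBCS3B, CA1 and GLDP1) fell in each genotype, and at 3 DAT their summed level was 15.78 to 15.92 in ein2/ore3, 16.23 to 16.31 in ahk3/ore12 and 15.00 to 15.29 in Col, against 18.33 to 18.39, 18.32 to 18.41 and 18.31 to 18.38 at 0 DAT. The summed level of 5 markers of other leaf cells at 3 DAT was 14.27 to 14.46 in ein2/ore3, 13.79 to 13.96 in ahk3/ore12 and 12.79 to 13.05 in Col, and of these genes 1, 2 and 3 were called lower than at 0 DAT. Of 7 markers of root, flower and seed, 1 was called at that time, lower in Col. No marker was at 0, and the part of these shifts in the JAZ changes was not tested.

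Pearson correlations over the 24 arrays, which share slides and time points, described how far the members went together. The highest between members was 0.889 for JAZ2 and JAZ10, followed by 0.74 for JAZ1 and JAZ6 and 0.696 for JAZ1 and JAZ7, and JAZ1 and JAZ3 had -0.522. Outside the members, the gene most like JAZ3 was ARF18 (r = 0.952), that most like JAZ1 was AT1G52200 (0.947), that most like JAZ7 was AT2G20010 (0.909), that most like JAZ10 was AT4G17420 (0.904) and that most like JAZ2 was LTI30 (0.889). JAZ5, JAZ6, JAZ8 and JAZ9 were most like MSRB7 (0.815), ATX1 (0.872), AT4G34320 (0.91) and AT1G53885 (0.847). JAZ12 was most like the MIR164b locus (0.956), which was 0.378 without ein2/ore3 2 DAT replicate 2. Over the 12 condition means, CID9 came closest to JAZ3 (0.978), AT1G52200 to JAZ1 (0.965), PRA1.A2 to JAZ7 (0.953) and FLA5 to JAZ10 (0.969). On the same means JAZ2, JAZ5, JAZ6, JAZ8, JAZ9 and JAZ12 were closest to SOB5 (0.942), AT3G22415 (0.901), DHNAT1 (0.944), AT5G52670 (0.947), SUE4 (0.95) and AT2G30362 (0.972).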

How the data were processed

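The deposited files hold, for each array, the authors' linear RMA intensity of 37118 transcript variants (background corrected, quantile normalized, summarized over probes). A deposited series table gives log2 values of 32627 genes, which differ by at most 0.00514 from the log2 of summed variant intensities used here. RefSeq symbols matched 31993 loci, and 634 kept the locus tag. In R 4.3.3 with limma 3.58.1, the 12 condition means were fitted to all 24 arrays, the genotype term (time as a factor) to 16 and the time course F-test to the 8 Col arrays, with Benjamini-Hochberg adjustment over all genes at an FDR of 0.05. These main fits held no slide term. Replicate numbers shared a chip number in the deposited files, so the number was fitted as a slide block in an alternative. Deviations from condition means had a median correlation of 0.302 between conditions (66 pairs, 47 over 0.1 and 2 under -0.1). Other alternatives were normalization, variant summary, a filter leaving out the dimmest 25% of genes, arrays in the fit, thresholds and leaving out each array, whose partner was then assumed to vary like the others. The rule for the members used no measured values, but members, pathway lists and tests were chosen with earlier results of these data known. All members, EIN2, AHK3, JAZ4, JAZ11, JAZ13, COI1, NINJA, MYC2 and EIN3 were named, with per list the 2 largest called changes of equal sign on both slides (Col at 3 DAT, and the genotype terms) and per member its most correlated gene. On simulated data of 32627 genes for ein2/ore3 against Col at 3 DAT, 55 of 100 genes changed by 1 log2 unit and 89 of 100 changed by 2 were called, with 5 false calls. The simulated noise was independent between arrays, with no slide effect, and few genes were changed. In the measured comparison 25.1% of all genes were called, so these rates may not hold there.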

Additional observations from a re-analysis of the deposited data

Results flagged for a closer look

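The dark change of JAZ3 over 1 to 3 DAT differed between ein2/ore3 and Col by limma's F-test of the interaction (adjusted p = 0.00116), with rises in ein2/ore3 and falls in Col on both slides. The same test for ahk3/ore12 against Col gave an adjusted p of 0.0496 for JAZ3, close to the threshold. Both are listed here because the test of the difference between genotypes itself passed, and both use the same Col arrays.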

How the results depend on the processing

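Of 67 calls on JAZ genes, 23 held under every alternative and 44 were lost under at least 1. None reversed, though F-test calls have no sign. No call on a dark change, a difference at the same time point or an interaction had opposite signs on the 2 slides. Genotype terms and F-tests were not split by slide. With the replicate block no call was lost. It moved the members called between the mutants to 11 of 40, against 6, and for the ahk3/ore12 genotype term to 1, against 0, and the 12 added calls are given beside their results. With other arrays in the fit, calls on the dark change became 7 of 30 in ein2/ore3, 9 in ahk3/ore12 and 8 in Col (against 14, 5 and 13), those of ein2/ore3 against Col 3 of 40 (against 8), between the mutants 3 (against 6), the ahk3/ore12 genotype term 1 (against 0) and the Col time course 5 (against 3). At an FDR under 0.01, the dark change gave 7 calls for ein2/ore3 and 3 for ahk3/ore12, with 5 for ein2/ore3 and 2 for ahk3/ore12 against Col, 0 for the ahk3/ore12 interaction (against 3) and 0 for its F-test (against 1), 2 between the mutants and 1 for the Col time course. The ordinary F-test also gave 1 for the Col time course. Without the 2 arrays that stood apart, an alternative chosen after seeing the data, the F-test of the interaction called 2 members in ein2/ore3 and 3 in ahk3/ore12, against 1 each.

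Leaving out each array in turn gave 5 to 15 calls on the dark change in ein2/ore3, 2 to 7 in ahk3/ore12 and 7 to 15 in Col, 6 to 9 for ein2/ore3 and 2 to 6 for ahk3/ore12 against Col, 3 to 5 and 0 to 4 for their interactions, 1 to 3 and 0 to 2 for the F-tests, 3 to 10 between the mutants, 3 to 4 and 0 to 6 for the genotype terms, and 1 to 5 for the Col time course. The causes of these shifts were not tested. With 2 arrays per condition precision is limited, and the SE of a difference was 0.36 for JAZ8, which lay near the dim end of the arrays.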
